A study of Mus musculus with 24 samples.

Results

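The glucocorticoid receptor, encoded by *Nr3c1*, and 9 genes that it controls or that set how much hormone reaches it were followed in the livers of fed and fasted mice with or without p110α in hepatocytes. The 10 genes were *Nr3c1*, *Fkbp5*, *Zbtb16*, *Tsc22d3*, *Sgk1*, *Dusp1*, *Cebpb*, *Cebpd*, *Hsd11b1* and *Serpina6*. They were found by gene name among the 56605 non-control probes of the array, where 17 probes carried 1 of these names, and each gene was read from the probe with the highest mean signal over all 24 arrays. All 10 of these probes were well above background on every array, so no gene was lost to the filter on dim probes. After that filter 21365 gene names were tested in all.

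Each array held the liver RNA of 1 male mouse aged 12 weeks, and 6 mice made up each of 4 groups. All mice were floxed at the gene for p110α, *Pik3ca*, which encodes a catalytic subunit of the phosphoinositide 3-kinase that acts downstream of the insulin receptor. Mice named LKO (p110aLKO in the labels) also carried the Cre recombinase under the albumin promoter, which is used to act in hepatocytes, and deletion by cell type was not measured here. Littermates named LWT (p110aLWT) carried no Cre, so that an effect of Cre itself cannot be told apart from that of the deletion. LWT_Fed and LKO_Fed mice ate freely. LWT_Fasted and LKO_Fasted mice had no food for 24 h, and all mice were killed at ZT16, so that time of day did not differ between the groups.

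Glucocorticoids, corticosterone in mice, are released by the adrenal gland and rise with food deprivation. In the hepatocyte they bind a cytosolic receptor held by HSP90 and its co-chaperones, and the receptor then moves to the nucleus and binds DNA as a dimer at glucocorticoid response elements. In the liver it is known for raising genes of gluconeogenesis and amino acid breakdown during fasting, and several of its targets, such as *Fkbp5*, *Tsc22d3* and *Zbtb16*, are used in many tissues as readouts of glucocorticoid exposure.

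Per array, the share of spots well above background ranged from 54.7% to 63.0%, without saturation. Within groups, the mean Pearson r of an array with the others of its group over all genes lay between 0.988 and 0.996, and the lowest was LKO_Fasted replicate 4. Hepatocyte markers matched the labelled tissue, with *Alb* at 18.98 in LWT_Fed and 18.97 in LKO_Fasted on the normalized log2 scale. The probe for *Pik3ca* was not lower in arrays labelled LKO. Its log2 fold change between LKO and LWT was 0.58 ± 0.11 (SE, adjusted p = 0.00147) in the fed state and -0.02 ± 0.12 (adjusted p = 0.93) in the fasted state. Where this probe lies relative to the deleted part of the gene was not examined, so it does not check the labels, and LKO below means the arrays labelled so. For such mice the study reports the deleted allele in liver by PCR, and a lack of p110α protein.

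Fasting moved most of the 10 genes, and the genotype moved some of them in fasted livers. A gene was called changed at an adjusted p of at most 0.05 in limma. In LWT, 4 genes rose and 2 fell with fasting, against 41.6% of all tested genes called in either direction. In LKO, 4 rose and 4 fell, against 41.5%. By direction, 19.9% of all genes rose and 21.7% fell in LWT, and 19.7% rose and 21.9% fell in LKO. In fed livers limma called none of the 10 between the genotypes, against 16.4%, although the unadjusted p was under 0.05 for 2, *Hsd11b1* and *Serpina6* (0.0416 and 0.0269). In fasted livers 4 genes were lower in LKO and none was higher, against 20.6% called in either direction and 10.6% called lower. The fasting response itself differed between the genotypes, by the test of the interaction, for 1 gene, *Tsc22d3*, against 7.99%. Fed and fasted arrays did not overlap for 4 genes in LWT (21.6% of all genes) and for 6 in LKO (22.2%), and the genotypes did not overlap for 2 genes in fasted livers (8.69%) and for none in fed livers (8.64%). The counts are descriptions of 10 chosen genes. Fold changes and their errors come from a fit that weights arrays and allows for the slide, so they can differ from the difference of plain group means. The median size of the log2 fold change, without sign, was 0.51 over the 10 genes and 0.17 over all genes for fasting in LWT, and 0.71 and 0.19 for fasting in LKO. For genotype it was 0.14 and 0.11 in fed livers and 0.39 and 0.13 in fasted livers.

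**Figure D1:**
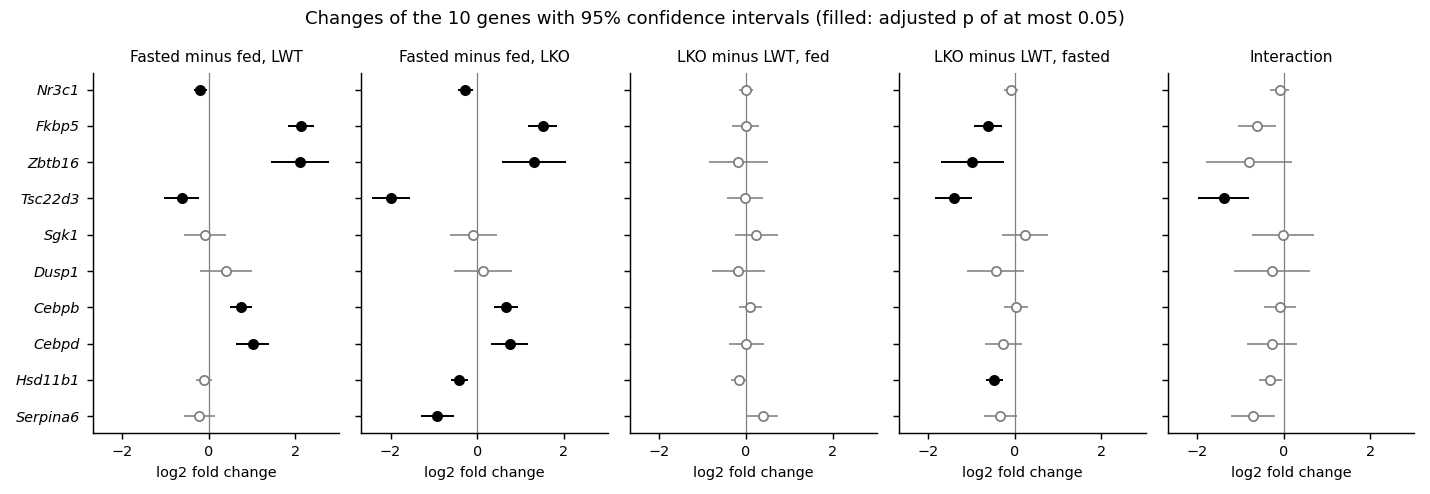
Log2 fold changes of the 10 genes in each comparison (points) with 95% confidence intervals (lines), from 6 arrays per group. Filled points passed an adjusted p of 0.05. *Fkbp5* and *Zbtb16* stand near 2.1 for fasting in LWT and lower in LKO, and *Tsc22d3* stands at -0.62 in LWT and -2.0 in LKO. All points for fed genotype are open.

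The receptor itself moved little. *Nr3c1* had a lowest, median and highest normalized log2 signal of 12.44, 12.81 and 12.96 in LWT_Fed and of 12.43, 12.68 and 12.83 in LWT_Fasted. The 3 values, in the same order as for every gene below, were 12.73, 12.82 and 12.87 in LKO_Fed and 12.46, 12.54 and 12.63 in LKO_Fasted. The fed and fasted arrays overlapped in LWT and did not overlap in LKO. The log2 fold change with fasting was -0.19 ± 0.06 (SE, adjusted p = 0.0225) in LWT and -0.27 ± 0.07 (adjusted p = 0.00343) in LKO, which in percent is -12.1% and -17.3%. Between genotypes the receptor differed by -0.01 in fed livers (adjusted p = 0.968) and by -0.09 in fasted livers (adjusted p = 0.387), with 95% intervals of -0.14 to 0.13 and -0.24 to 0.05. In the order of group means, both fasted groups came first and both fed groups last, and the neighbours within each pair did not differ beyond their spread. The small fall rests on 1 of 2 probes for the gene. The second probe, also well above background on all arrays, gave -0.07 (adjusted p = 0.689) in LWT and -0.15 (adjusted p = 0.409) in LKO. The fall in LWT was also no longer called without array weights (-0.12, adjusted p = 0.216) or when LWT_Fasted replicate 3, LWT_Fasted replicate 6 or LWT_Fed replicate 5 was left out (adjusted p between 0.0908 and 0.115). In LWT it was also not called without the filter on dim probes (-0.17, adjusted p = 0.0893) or in a fit of the LWT groups alone (-0.19, adjusted p = 0.0661). The fall in LKO was called in all 24 fits that left out 1 array. With the mean of both probes neither fall was called (-0.12, adjusted p = 0.255 in LWT, and -0.21, adjusted p = 0.0768 in LKO).

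**Figure D2:**
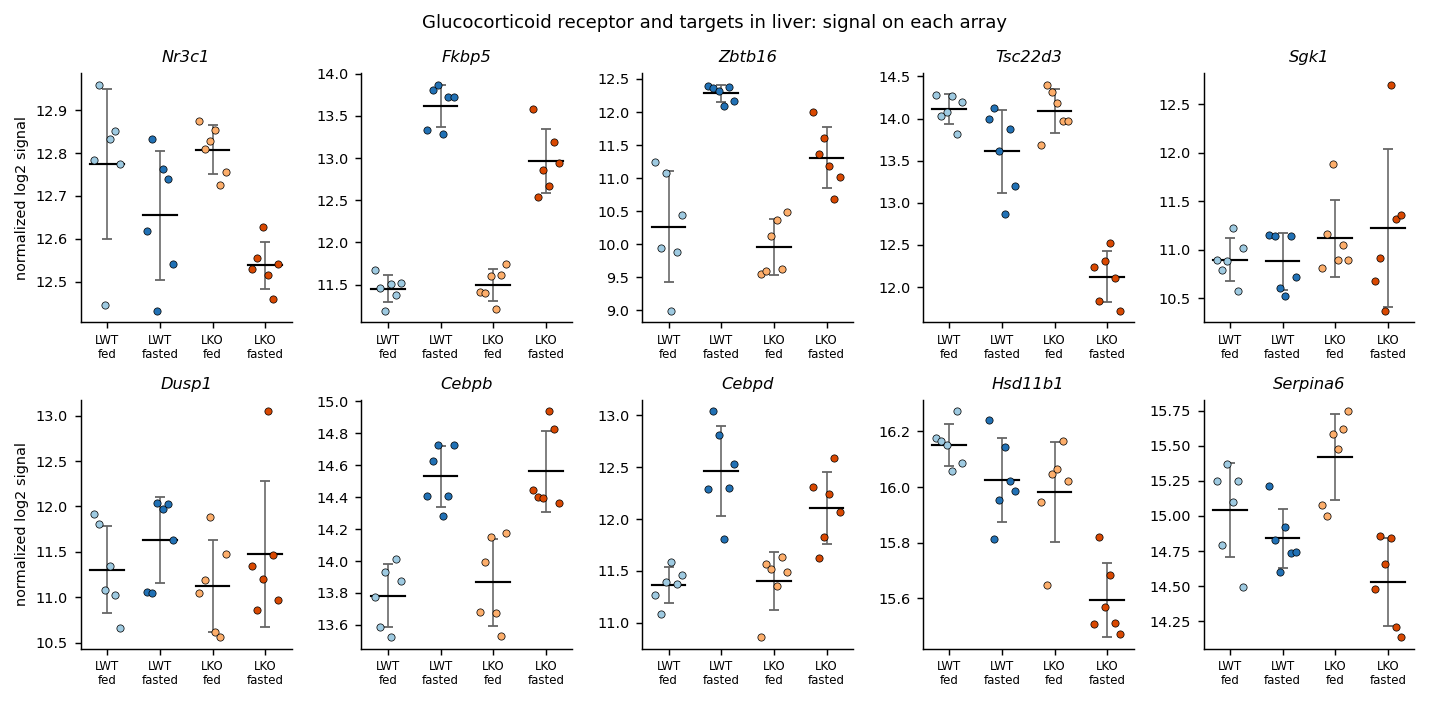
Normalized log2 signal of each of the 10 genes (1 panel each) on each of the 24 arrays, by group. Points are arrays, black bars are group means and grey bars are ± SD (n = 6). The vertical axes differ between panels and do not start at 0. *Fkbp5* and *Zbtb16* are high in both fasted groups, most so in LWT_Fasted, while *Tsc22d3*, *Hsd11b1* and *Serpina6* are lowest in LKO_Fasted.

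*Fkbp5* encodes FKBP51, a co-chaperone of HSP90 that lowers the hormone affinity of the receptor and is itself induced by the receptor, so that it acts as a feedback brake. Its log2 signal was 11.19, 11.48 and 11.67 (lowest, median, highest) in LWT_Fed and 11.21, 11.51 and 11.74 in LKO_Fed. After fasting it was 13.29, 13.73 and 13.87 in LWT_Fasted and 12.54, 12.90 and 13.58 in LKO_Fasted. Every fasted array was above every fed array of either genotype, whereas the ranges of both fasted groups overlapped through LKO_Fasted replicate 1, the highest of its group. *Fkbp5* rose with fasting 4.36-fold in LWT (log2 fold change 2.12 ± 0.13 SE, adjusted p = 7.61e-11) and 2.84-fold in LKO (1.51 ± 0.15, adjusted p = 3.4e-08). In fasted livers it differed in LKO by -35.1% (-0.62 ± 0.14, adjusted p = 0.0039), and in fed livers the genotypes differed by -0.01, with a 95% interval of -0.29 to 0.27 (adjusted p = 0.975). Its probe lies on chromosome 17 at 28536060 to 28536119 of build mm9, as the files give it. The fit of the fasted groups alone gave -0.60 (adjusted p = 0.0602). The order of levels was both fed groups together, then LKO_Fasted, then LWT_Fasted. The difference between the fasting responses was -0.61 ± 0.20 and missed the threshold (adjusted p = 0.062). It passed when LKO_Fasted replicate 1 was left out (-0.72, adjusted p = 0.0157) and in 8 other settings given below. The second probe for *Fkbp5* had the same directions (1.61, 0.69 and -0.78 for fasting in LWT, fasting in LKO and genotype in fasted livers), of which only the first was called. The dimmest of its probes was well above background on 6 of 6 LWT_Fasted arrays, on 1 of 6 LKO_Fasted arrays and on no fed array.

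*Zbtb16* encodes PLZF, a zinc finger transcription repressor that glucocorticoids induce in many cell types. Its log2 signal was 8.99, 10.20 and 11.24 in LWT_Fed, the widest spread of the 10 genes in that group, and 9.56, 9.87 and 10.49 in LKO_Fed. It reached 12.09, 12.34 and 12.40 in LWT_Fasted and 10.69, 11.28 and 12.00 in LKO_Fasted. Fasted arrays lay above fed arrays within each genotype, and every LWT_Fasted array lay above every LKO_Fasted array. *Zbtb16* rose 4.33-fold with fasting in LWT (2.11 ± 0.31, adjusted p = 1.17e-05) and 2.48-fold in LKO (1.31 ± 0.34, adjusted p = 0.00393). In fasted livers it differed in LKO by -49.2% (-0.98 ± 0.34), just within the threshold (adjusted p = 0.0459). That call was lost in 16 of 24 fits that left out 1 array, in which the difference stayed between -0.76 and -1.02 and the adjusted p between 0.0509 and 0.136. They were those that left out, in turn, each of the 6 LWT_Fasted arrays, LKO_Fasted replicate 3, 4, 5 or 6, LKO_Fed replicate 2, 3 or 5 and LWT_Fed replicate 2, 5 or 6. The call was also lost with the scanner's processed signal (-0.92, adjusted p = 0.0786) and with another background correction (-0.92, adjusted p = 0.0517). Without the filter on dim probes it was lost as well (-0.93, adjusted p = 0.076). The fasting responses differed by -0.80 ± 0.46 (adjusted p = 0.319). The second probe, whose 60 bases the files place between 48473399 and 48525415 of chromosome 9 (mm9) and thus across an intron, was called in the same 3 comparisons (1.27, 0.53 and -0.69).

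**Figure D3:**
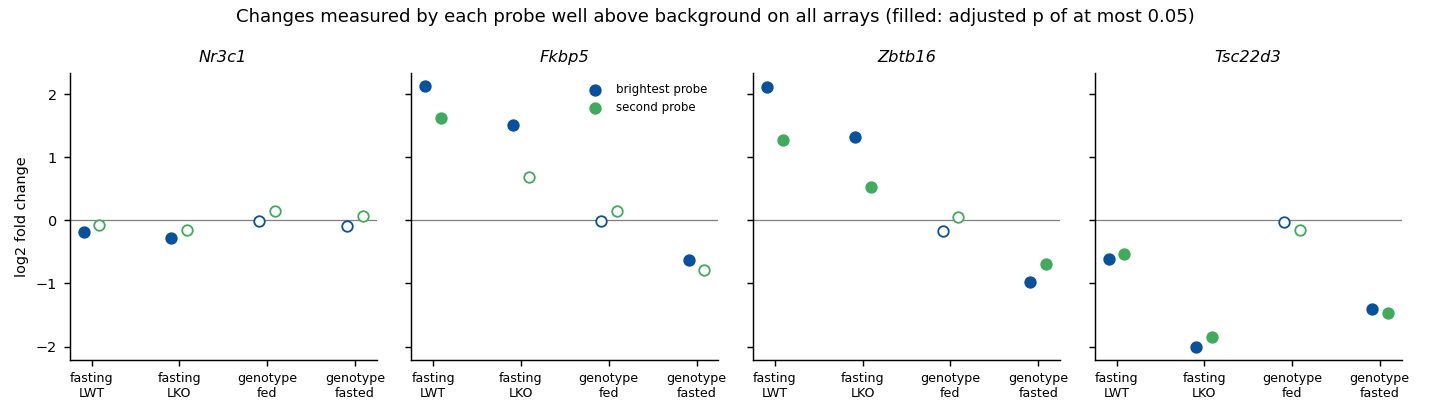
Log2 fold changes from each probe that was well above background on all 24 arrays, for the 4 genes with more than 1 such probe. Filled points passed an adjusted p of 0.05. Both probes of *Fkbp5*, *Zbtb16* and *Tsc22d3* moved the same way in the fasting comparisons and in fasted genotype, and the second probe of *Nr3c1* was called in none.

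*Tsc22d3* encodes GILZ, a leucine zipper protein that carries much of the anti-inflammatory action of glucocorticoids and is classed among the genes they induce. Here it went the other way from *Fkbp5* and *Zbtb16*. The log2 signal of *Tsc22d3* was 13.82, 14.14 and 14.28 in LWT_Fed and 13.69, 14.08 and 14.40 in LKO_Fed. After fasting it was 12.86, 13.74 and 14.12 in LWT_Fasted and 11.72, 12.18 and 12.52 in LKO_Fasted. All LKO_Fasted arrays were below all arrays of the 3 other groups, and LWT_Fasted overlapped with both fed groups. *Tsc22d3* changed with fasting by -34.8% in LWT (-0.62 ± 0.18, adjusted p = 0.00873) and by -75% in LKO (-2.0 ± 0.20, adjusted p = 4.84e-08). The fasting responses differed by -1.38 ± 0.27 (adjusted p = 0.00348), the 1 interaction called among the 10 genes. In fasted livers *Tsc22d3* was 2.65-fold lower in LKO (-1.41 ± 0.20, adjusted p = 3.89e-05), and within each of the 3 slides this difference lay between -1.59 and -1.39. In fed livers the genotypes differed by -0.02 with an interval of -0.41 to 0.36 (adjusted p = 0.95). The second probe gave -0.53, -1.84 and -1.46 for these comparisons and -1.32 for the interaction (adjusted p = 0.00251). The fall in LWT was not called when LWT_Fasted replicate 6 was left out (-0.54, adjusted p = 0.0552), while the interaction was called in all 24 fits that left out 1 array (-1.53 to -1.29). In RNA of whole liver, fewer cells of a type and less RNA per cell cannot be told apart.

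*Cebpb* and *Cebpd* encode C/EBPβ and C/EBPδ, transcription factors of the acute phase and of gluconeogenesis that glucocorticoids and cyclic AMP induce. The log2 signal of *Cebpb* was 13.52, 13.83 and 14.01 in LWT_Fed, 14.28, 14.52 and 14.73 in LWT_Fasted, 13.53, 13.84 and 14.17 in LKO_Fed and 14.36, 14.42 and 14.94 in LKO_Fasted. Fed and fasted arrays were apart in both genotypes. The signal rose by 67.7% in LWT (0.75 ± 0.11, adjusted p = 1.25e-05) and by 58.8% in LKO (0.67 ± 0.12, adjusted p = 0.000139). *Cebpd* had 11.09, 11.39 and 11.59 in LWT_Fed, 11.80, 12.41 and 13.04 in LWT_Fasted, 10.86, 11.50 and 11.64 in LKO_Fed and 11.62, 12.16 and 12.59 in LKO_Fasted. It rose 2.02-fold in LWT (1.02 ± 0.18, adjusted p = 8.18e-05) and 1.68-fold in LKO (0.75 ± 0.20, adjusted p = 0.00382), where LKO_Fasted replicate 2, at 11.62, lay just below the highest LKO_Fed array. Neither gene was called between genotypes. In fasted livers the difference was 0.02 for *Cebpb* (interval -0.23 to 0.27, adjusted p = 0.925) and -0.26 for *Cebpd* (-0.66 to 0.14, adjusted p = 0.372). Of 5 other genes of the C/EBP family, 2 were called with fasting in each genotype, near the 41.6% and 41.5% of all genes called, and in both they were *Cebpz* (0.27 in LWT and 0.39 in LKO) and *Cebpg* (0.24 and 0.40). The 2 called between genotypes in fed livers were *Ddit3*, encoding the stress factor CHOP (1.32 ± 0.33, adjusted p = 0.00862), and *Cebpz* (0.20), and in fasted livers *Cebpz* (0.32) and *Cebpg* (0.26) were called higher in LKO, against 16.4% and 20.6% of all genes called. Without LKO_Fasted replicates 1 and 2, 1 of the 5 rather than 2 was higher in fasted LKO livers, and the number that fell with fasting in LKO and the number with a called interaction were each 1 rather than 0.

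*Sgk1*, a kinase that relays glucocorticoid and mineralocorticoid signals to ion transport, and *Dusp1*, a phosphatase that switches off MAP kinases, were called in no comparison. *Sgk1* had 10.57, 10.89 and 11.23 in LWT_Fed, 10.52, 10.93 and 11.15 in LWT_Fasted, 10.82, 10.97 and 11.89 in LKO_Fed and 10.37, 11.12 and 12.71 in LKO_Fasted. *Dusp1* had 10.66, 11.21 and 11.92 in LWT_Fed, 11.05, 11.80 and 12.04 in LWT_Fasted, 10.56, 11.12 and 11.88 in LKO_Fed and 10.86, 11.27 and 13.05 in LKO_Fasted. All 4 groups overlapped for both genes. The 95% intervals of the fasting changes were -0.55 to 0.38 in LWT and -0.60 to 0.42 in LKO for *Sgk1*, and -0.18 to 0.97 and -0.51 to 0.77 for *Dusp1*.

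The highest value of both genes came from LKO_Fasted replicate 4. Without that array the genotype difference of *Dusp1* in fasted livers went from -0.44 to -0.59 (adjusted p = 0.127) and that of *Sgk1* from 0.23 to 0.09 (adjusted p = 0.807). On the same array *Btg2* and *Egr1* were the highest of all 24 (11.64 and 10.97), and *Saa1*, encoding the acute phase protein serum amyloid A, stood at 16.34 against 12.96 to 14.12 on the other LKO_Fasted arrays. LWT_Fed replicate 3 had the highest *Saa1* of all (17.85 against 13.46 to 14.15 in its group) and also the lowest *Nr3c1* and *Fkbp5* of its group. These arrays had array weights of 0.355 and 0.32, the lowest of the 24. Without both, the number of the 10 genes called was 6 and 8 for fasting, 0 and 3 for genotype in fed and fasted livers and 1 for the interaction, with *Zbtb16* in fasted genotype the call that was lost (-0.97, adjusted p = 0.054).

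**Figure D4:**
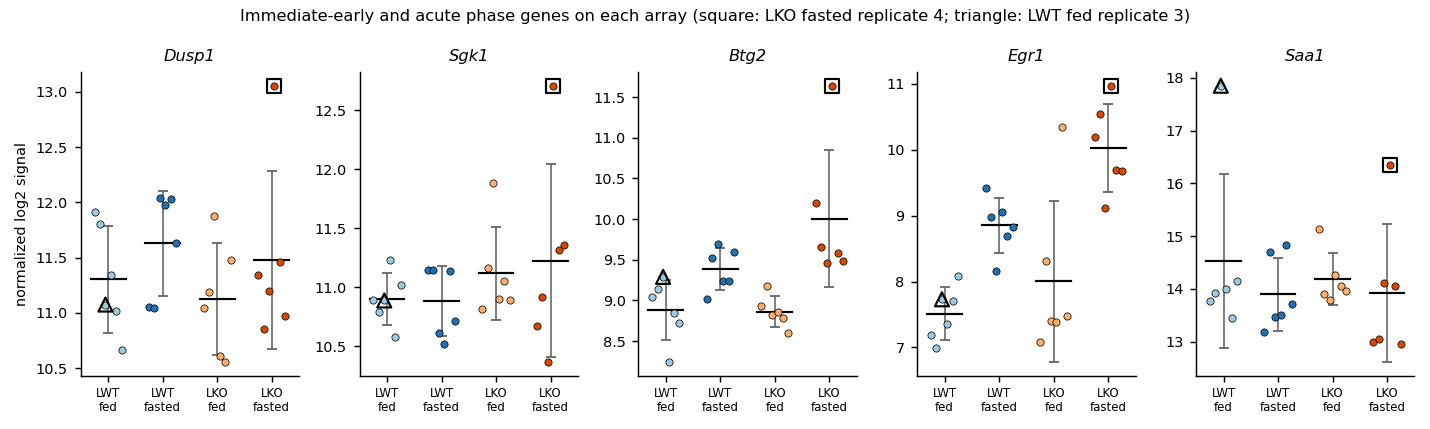
Normalized log2 signal of *Dusp1*, *Sgk1*, the immediate-early genes *Btg2* and *Egr1* and the acute phase gene *Saa1* on each array, with group mean and SD (n = 6). The square marks LKO_Fasted replicate 4 and the triangle LWT_Fed replicate 3, which stand at 13.05 for *Dusp1* and 17.85 for *Saa1*.

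Immediate-early genes, which growth factor and stress signals switch on within minutes, were read from a list of 15. In LWT 6 rose with fasting and none fell (19.9% of all genes rose), led by *Myc* (1.58 ± 0.41, adjusted p = 0.00329) and *Jun* (1.48 ± 0.25). In LKO 8 rose and none fell (19.7% of all genes rose), led by *Jun* (2.18 ± 0.28, adjusted p = 1.79e-06) and *Egr1* (2.05 ± 0.40). Without LWT_Fed replicate 3 and LKO_Fasted replicate 4, 1 gene of the list rather than none fell in LKO. The median change of the list was 0.30 in LWT and 0.66 in LKO, and over all genes it was -0.01 and -0.02. No gene of the list was called between genotypes in fed livers, against 16.4% of all genes, and the median of the list there was 0.18. In fasted livers *Nr4a1* (1.36 ± 0.26, adjusted p = 0.000688) and *Ier3* (1.15 ± 0.11) were higher in LKO, and the fasting response of *Ier3* was larger in LKO (interaction 0.96 ± 0.16, adjusted p = 0.000816). These 2 of 15 and 1 of 15 stand against 20.6% and 7.99% of all genes called. Of 15 acute phase genes, 3 rose and 2 fell in LWT and 2 rose and 5 fell in LKO, which as shares of the list lie near the 41.6% and 41.5% of all genes called. *Serpina3n*, a protease inhibitor that glucocorticoids and interleukin 6 induce, rose in both (0.72 and 0.42). *Orm2* and *Orm1* were the genes that fell most in LWT (-0.62 and -0.58), and *Orm3* and *Saa3* in LKO (-1.11 and -0.71). *Orm3* and *Hpx* were called higher in LKO in fed livers (0.68 and 0.31) and *Hpx* in fasted livers (0.35). Without LKO_Fasted replicates 1 and 2, 1 gene of the list rather than 2 was higher in fed LKO livers. Without LWT_Fed replicate 3 and LKO_Fasted replicate 4, 1 was lower in fasted LKO livers and 2 had a called interaction, rather than none.

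To show what stands before the starts of these genes, 250 bases upstream of each RefSeq start were read in build GRCm38.p6 for the 6 of 10 genes with an entry. They are *Fkbp5*, *Dusp1*, *Cebpb* and *Hsd11b1* with 1 start each, *Tsc22d3* with 3 and *Sgk1* with 6. On both strands 4 motifs were searched, none of which contains another. The palindromic glucocorticoid response element (AGAACA, then 3 bases of any kind, then TGTTCT) occurred in 3 of 32851 such windows of 250 bases before all starts (0.009%), the cyclic AMP response element TGACGTCA in 1.546%, the C/EBP palindrome TTGCGCAA in 0.164% and the FOXO site GTAAACA in 3.166%. The windows printed here are shown because they are the ones of these genes that hold a motif, which is in capitals, together with that of *Fkbp5*, the gene with the largest rise. The *Sgk1* window lies at chr10:21993640-21993889 on the plus strand with its glucocorticoid response element at -189 from the start, and that gene was not called in any comparison. The *Dusp1* window lies at chr17:26508473-26508722 on the minus strand with a cyclic AMP response element at -143. The *Hsd11b1* window lies at chr1:193242361-193242610 on the minus strand with a FOXO site at -138. The *Fkbp5* window lies at chr17:28486150-28486399 on the minus strand and holds none of the 4. A match is a sequence of letters only, and no match says nothing of sites elsewhere.
Sgk1: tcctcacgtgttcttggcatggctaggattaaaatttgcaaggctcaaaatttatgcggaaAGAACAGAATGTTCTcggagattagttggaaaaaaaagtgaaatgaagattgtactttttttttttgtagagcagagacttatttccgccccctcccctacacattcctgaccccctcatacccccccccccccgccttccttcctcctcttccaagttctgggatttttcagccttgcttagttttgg
Dusp1: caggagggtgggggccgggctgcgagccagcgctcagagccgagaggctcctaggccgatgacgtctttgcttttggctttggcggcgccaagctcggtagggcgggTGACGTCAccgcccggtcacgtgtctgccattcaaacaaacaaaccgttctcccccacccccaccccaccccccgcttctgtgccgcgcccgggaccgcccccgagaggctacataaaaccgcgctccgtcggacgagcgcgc
Hsd11b1: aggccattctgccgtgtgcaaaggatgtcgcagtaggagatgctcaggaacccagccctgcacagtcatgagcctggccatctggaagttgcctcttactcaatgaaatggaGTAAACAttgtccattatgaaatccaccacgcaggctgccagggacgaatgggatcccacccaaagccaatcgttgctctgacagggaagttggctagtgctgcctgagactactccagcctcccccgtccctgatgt
Fkbp5: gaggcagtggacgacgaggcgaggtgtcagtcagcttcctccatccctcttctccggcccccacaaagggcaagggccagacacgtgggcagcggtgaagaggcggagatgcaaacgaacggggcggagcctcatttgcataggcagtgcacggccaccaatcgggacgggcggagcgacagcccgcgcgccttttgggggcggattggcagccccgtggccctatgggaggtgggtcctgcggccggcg

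*Hsd11b1* and *Serpina6* set how much active hormone reaches the receptor. *Hsd11b1* encodes the reductase of the endoplasmic reticulum that makes active corticosterone from its inert 11-keto form inside the hepatocyte. Its log2 signal was 16.06, 16.16 and 16.27 in LWT_Fed, 15.81, 16.003 and 16.24 in LWT_Fasted, 15.65, 16.03 and 16.16 in LKO_Fed and 15.47, 15.54 and 15.82 in LKO_Fasted. LKO_Fasted was lowest, and 1 of its arrays, replicate 2, reached the range of the LWT_Fasted arrays. Its range also overlapped that of LKO_Fed. *Hsd11b1* differed in LKO from LWT in fasted livers by -27.9% (-0.47 ± 0.08, adjusted p = 0.000399) and with fasting in LKO by -25% (-0.41 ± 0.09, adjusted p = 0.000454). In LWT the fasting change was -0.11 (interval -0.27 to 0.05, adjusted p = 0.256), in fed livers the genotype difference was -0.17 (adjusted p = 0.152), and the interaction was -0.30 ± 0.11 (adjusted p = 0.114). It passed without LKO_Fasted replicate 2 (-0.36, adjusted p = 0.0478) and without LKO_Fed replicate 2 (-0.36, adjusted p = 0.0294). Among the 3 other groups, neighbours in the order of means did not differ beyond their spread.

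*Serpina6* encodes corticosteroid-binding globulin, the plasma carrier that the liver secretes. It had 14.50, 15.17 and 15.37 in LWT_Fed, 14.60, 14.79 and 15.21 in LWT_Fasted, 15.00, 15.53 and 15.75 in LKO_Fed and 14.14, 14.57 and 14.85 in LKO_Fasted. The fed and fasted ranges were apart in LKO and overlapped in LWT. *Serpina6* changed by -47.2% with fasting in LKO (-0.92 ± 0.17, adjusted p = 0.000184), against -0.21 ± 0.16 in LWT (adjusted p = 0.305). The test of that difference missed the threshold (-0.71 ± 0.23, adjusted p = 0.0665), and passed it when LKO_Fed replicate 2 was left out (-0.82, adjusted p = 0.0259), as it did in 7 other settings. Between genotypes it was 0.38 ± 0.16 in fed livers (adjusted p = 0.113) and -0.33 ± 0.17 in fasted livers (adjusted p = 0.188). Without LKO_Fed replicate 2 the difference in fed livers was called (0.49, adjusted p = 0.0351).

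Other enzymes and transporters of glucocorticoids were read from a list of 12, of which 11 were tested and *Hsd11b2* was well above background on no array. With fasting, 2 rose and 5 fell in LWT and 2 rose and 7 fell in LKO, with medians of -0.33 and -0.60, against 41.6% and 41.5% of all genes called in either direction. The genes that rose were the same in both. *Cyp3a13*, a steroid hydroxylase, rose by 0.81 in LWT and 0.51 in LKO, and *H6pd*, which supplies the reductase encoded by *Hsd11b1* with NADPH, rose by 0.71 ± 0.09 and 1.09 ± 0.10. *Hsd3b3*, a hydroxysteroid dehydrogenase, fell, with log2 fold changes of -1.55 ± 0.16 and -2.75 ± 0.18, and *Akr1c14*, which reduces the 3-keto group of 5α-reduced steroids, fell likewise (-1.46 ± 0.16 and -2.06 ± 0.17). In fed livers *Hsd17b6* was higher in LKO (1.09 ± 0.23, adjusted p = 0.00233) and *Abcb1a*, a steroid exporter, lower (-0.41). In fasted livers 6 of the 11 were lower in LKO and 1 was higher, against 20.6% of all genes called in either direction and 10.6% lower. The lower ones were led by *Hsd3b3* (-1.31 ± 0.18, adjusted p = 3e-05) and *Akr1d1*, the 5β-reductase that inactivates glucocorticoids (-1.09 ± 0.12, adjusted p = 3.81e-06), and the higher one was *H6pd* (0.52 ± 0.10). The interaction was called for 3 of the 11, against 7.99% of all genes, all more negative in LKO, among them *Hsd3b3* (-1.19 ± 0.24, adjusted p = 0.00487) and *Akr1d1* (-0.91 ± 0.17, adjusted p = 0.00257). *Hsd11b1* and 6 genes of this list were lower in fasted LKO than in fasted LWT livers. The median of the list was -0.52 there, against -0.0041 over all genes. Of 7 pancreas markers, *Prss2*, *Pnlip* and *Cpa1* were well above background on no array. Of the 4 tested, 3 fell with fasting in LWT and 2 in LKO (medians -0.44 and -0.61). In fasted LKO livers 3 were lower and 1, *Cela2a*, was higher (mean 7.91, against 7.29 in LWT_Fasted). The mean level of the 4 was 9.93 to 10.22 in LWT_Fasted and 9.58 to 9.94 in LKO_Fasted. The part of these markers was not tested.

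The receptor's partners were read from a list of 20 with its chaperones, coregulators and the mineralocorticoid receptor. With fasting 8 rose and 6 fell in LWT, and 7 rose and 6 fell in LKO, with medians of -0.07 and 0.06. Of all genes 19.9% rose and 21.7% fell in LWT, and 19.7% and 21.9% in LKO. *Crtc2*, a coactivator of CREB that also assists the glucocorticoid receptor, rose by 0.71 ± 0.06 (adjusted p = 1.72e-09) in LWT and 0.49 ± 0.06 in LKO. *Hnrnpu* rose by 0.50 in LWT, and *Nrip1*, a corepressor, by 0.65 ± 0.12 in LKO. *Nr3c2*, the mineralocorticoid receptor, which also binds corticosterone, fell by 1.06 ± 0.12 in LWT and 1.39 ± 0.13 in LKO on the log2 scale (adjusted p = 3.56e-07 and 2.23e-08). *Fkbp4*, encoding FKBP52, the co-chaperone that replaces FKBP51 when hormone binds, fell by 0.88 ± 0.06 in LWT (adjusted p = 2.72e-10) and by 0.77 ± 0.07 in LKO (adjusted p = 5.98e-09). *Fkbp5* and *Fkbp4* thus went in opposite directions with fasting in both genotypes. In fed livers *Crebbp* was higher (0.62) and *Hspa8* lower (-0.28) in LKO. In fasted livers the chaperones *Hsp90aa1* (0.65 ± 0.13, adjusted p = 0.00139) and *Hsp90ab1* (0.39 ± 0.07, adjusted p = 0.000673) were higher in LKO and *Nr3c2* lower (-0.45). The interaction was called for these 2 of the 20, near the 7.99% of all genes (0.64 ± 0.18, adjusted p = 0.0352, and 0.49 ± 0.10, adjusted p = 0.00502). They fell with fasting in LWT (-0.72 and -0.46) and were not called with fasting in LKO. Without LKO_Fasted replicates 1 and 2, 2 genes of the list rather than 4 were higher in fasted LKO livers, and 1 rather than 2 had a called interaction. Without LWT_Fed replicate 3 and LKO_Fasted replicate 4, 3 had a called interaction, 2 rather than 1 were lower in fasted LKO livers and none rather than 1 was lower in fed LKO livers. In all, 5 of the 20 were called between genotypes in fed livers and 5 in fasted livers, against 16.4% and 20.6% of all genes.

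A further list of 30 genes that glucocorticoids induce in liver or widely placed the 10 in context. The genes respond to other fasting signals as well. In LWT 21 rose and 2 fell with fasting, with a median of 0.96, against 19.9% of all genes called higher and 21.7% lower. In LKO 14 rose and 4 fell, with a median of 0.40, against 19.7% of all genes called higher and 21.9% lower. The metallothioneins, zinc-binding proteins, led the rise: *Mt2* by 6.40 ± 0.43 and *Mt1* by 4.78 ± 0.30 on the log2 scale in LWT (adjusted p = 1.84e-10 and 7.52e-11). In LKO *Mt2* rose by 4.88 ± 0.48 and *Pdk4*, the kinase that shuts off pyruvate dehydrogenase, by 4.32 ± 0.37. *Bcl6* and *Gadd45a* fell in LWT (-1.74 and -1.46), and *Bcl6* and *Ddit4* fell most in LKO (-2.46 and -1.90). *Tsc22d3* was thus not the only gene classed as induced that fell.

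In fed livers 8 of the 30 were higher in LKO and none lower (8.8% of all genes were higher), led by *Mt2* (2.03 ± 0.44, adjusted p = 0.00326) and *Igfbp1*, a binding protein of insulin-like growth factors that insulin represses (1.87 ± 0.33, adjusted p = 0.000602). None of the 10 genes was called there. In fasted livers 8 of the 30 were called, against 20.6% of all genes. Of these 4 were higher in LKO, led by *Igfbp1* (1.64 ± 0.35) and *Pdk4* (1.18 ± 0.37), and 4 were lower, led by *Ddit4* (-1.92 ± 0.33, adjusted p = 0.000308) and the cell cycle inhibitor *Cdkn1a* (-1.13 ± 0.34, adjusted p = 0.0217). Without LWT_Fed replicate 3 and LKO_Fasted replicate 4, the number lower was 8 rather than 4. The interaction was called for 3 of the 30, near the 7.99% of all genes, namely *Pdk4* (1.70 ± 0.50, adjusted p = 0.0422), *Sds*, serine dehydratase (-1.07 ± 0.30, adjusted p = 0.0356), and *Klf15* (-0.81 ± 0.23, adjusted p = 0.0381), and its median over the list was -0.43, against -0.0014 over all genes. Without LKO_Fasted replicates 1 and 2, none of the 30 had a called interaction, and without LWT_Fed replicate 3 and LKO_Fasted replicate 4, 6 had.

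**Figure D5:**
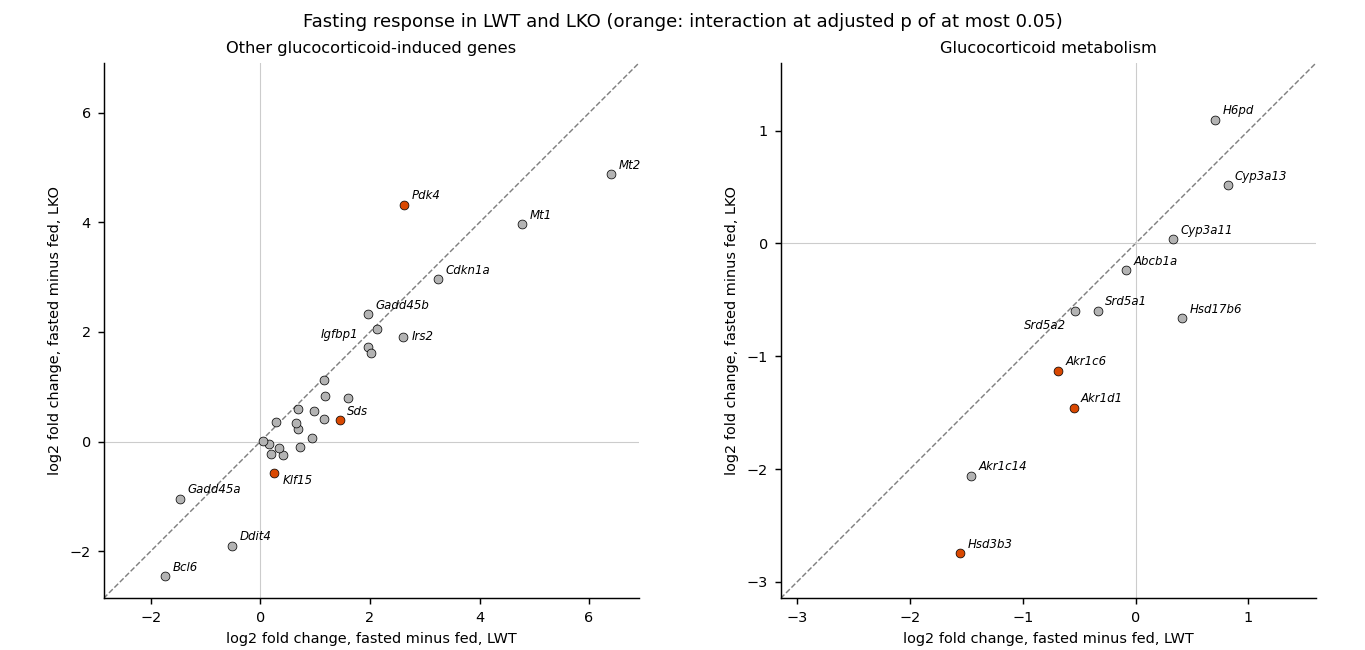
Log2 fold change with fasting in LKO (vertical) against that in LWT (horizontal) for 30 other glucocorticoid-induced genes (left) and 11 genes of glucocorticoid metabolism (right). Points are genes, the dashed line marks equal change and orange points have a called interaction. *Mt2* is at 6.40 and 4.88, and *Hsd3b3* is at -1.55 and -2.75.

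Across the 24 arrays, the genes most like *Nr3c1* by Pearson r included *Otc* (0.847) and *Glb1* (0.838), and those most like *Fkbp5* were *Fbxo31* (0.976), *Wbp1l* (0.972) and an unnamed transcript (0.968). These r share the group structure of the arrays and describe the pattern only.

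Markers of other cell types were read from the same fit. The counts below stand against 41.6% and 41.5% of all genes called with fasting in LWT and LKO. Between genotypes 16.4% of all genes were called in fed livers and 20.6% in fasted livers. Of 10 Kupffer and myeloid markers, 3 fell with fasting in LWT (*Cd68*, *C1qa* and *C1qb*, by 0.51 to 0.60 on the log2 scale) and none was called in the other comparisons. Their mean level lay between 10.39 and 11.66 in LWT_Fasted and between 10.34 and 12.34 in LKO_Fasted. Of 6 cholangiocyte markers 3 were lower in LKO in fed livers and 2 in fasted livers, led by *Spp1* (-1.50 and -2.10), and the adipose marker *Cfd* was lower in LKO in both states (-2.76 and -3.00), with *Adipoq* failing the filter. Of 8 neutrophil markers *Ngp*, *Ltf* and *Retnlg* failed the filter, and of 8 lymphocyte markers *Cd8a* and *Cd79a*. Of the tested neutrophil markers 2 fell with fasting in LWT and 1 in LKO, of 6 lymphocyte markers 1 fell in each genotype and 1 rose in LWT, and none of either kind was called between genotypes. Of 8 stellate cell markers 2 fell and 1 rose with fasting in LWT, and 3 fell and 1 rose in LKO. Of 8 endothelial markers 1 fell with fasting in LWT, 1 fell and 1 rose in LKO, and *Lyve1* was lower in LKO in fed livers (-0.88, adjusted p = 0.0405). Of the 4 erythroid markers that passed the filter, *Alas2* fell with fasting in both genotypes (-0.46 and -0.50) and was lower in LKO in fed and fasted livers (-0.80, adjusted p = 0.00167, and -0.83, adjusted p = 0.00128). The 3 others were not called in these comparisons. The median of the 4 was -0.48 and 0.09 for fasting in LWT and LKO, and -0.34 and 0.27 for genotype in fed and fasted livers. The mean level of the erythroid markers ranged from 11.93 to 12.56 in LWT_Fed, 11.10 to 12.47 in LWT_Fasted, 11.49 to 13.17 in LKO_Fed and 11.39 to 12.41 in LKO_Fasted. Cholangiocyte markers also changed with fasting, 2 lower and 1 higher in each genotype, and the adipose marker *Lep* fell in both (-0.23 and -0.28). Of the 4 tested adipose markers, the 3 others were not called with fasting, and the median was -0.03 in LWT and 0.01 in LKO. Between genotypes the 3 besides *Cfd* were not called, and the median was -0.13 in fed and in fasted livers. Of the 8 hepatocyte markers, 2 rose and 1 fell with fasting in LWT, 1 rose and 1 fell in LKO, and 1 was higher and 1 lower in LKO in fed livers. Of the same markers, *Ttr* and *Hnf4a* were lower in LKO in fasted livers (-0.41 and -0.24). The part of these shifts in the values of the 10 genes was not tested.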

How the data were processed

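Liver RNA labelled with Cy3 was hybridised to 1-colour Agilent mouse arrays, and the authors read the scans with Agilent Feature Extraction, version 10.10.1.1. Per the file headers, the deposited values used here are the median intensity of each spot on a linear scale, extracted from the scan and not normalized between arrays. A series table of log2 values processed by the authors was used only as an alternative. Here, log2 of the median spot signal was quantile normalized over the 32197 non-control probes that passed the scanner's flag for signal well above background in 1 or more groups, on 5 or 6 arrays there. In limma 3.58.1 (R 4.3.3), 4 group means and the slide (3 slides, 2 arrays of each group on each) were fitted to all 24 arrays with array weights. The study's washing bath could not be taken from the labels, so the slide term stood in its place. P-values were adjusted by Benjamini-Hochberg over all kept probes, and each gene was read from its brightest probe. The number of arrays limits the precision. Each p-value sets a difference against the spread between arrays, 1 per mouse, which limma estimates with help from all probes.

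The members and the lists were chosen with earlier results of these data known. Named were the 10 genes in every comparison, *Pik3ca*, the 2 called genes of each list with the largest rise and the 2 with the largest fall, the markers, and the 3 genes most like *Nr3c1* and *Fkbp5*. Of the genes this rule names, 3 are not reported here. Genes on the arrays that stood apart were named after their values were seen. Alternatives were another signal, background correction, normalization, the authors' values, other filters, no weights, no slide term, fewer groups, a replicate block, other probes, a fold minimum of 1.5 and leaving out arrays. The fit was tested on simulated data. Promoter sequences are those of RefSeq, build GRCm38.p6, and probe positions are mm9 as in the files. No sequence is given for *Nr3c1*, *Zbtb16*, *Serpina6* and *Cebpd*.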

Additional observations from a re-analysis of the deposited data

Results flagged for a closer look

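Among 40 sets of 6 arrays (10 genes in 4 groups), 4 held 1 array far from the others by Dixon's criterion, which chance gives in about 1 in 20. *Nr3c1* in LWT_Fed replicate 3 was 12.44, and its nearest neighbour 12.78. *Sgk1* in LKO_Fed replicate 3 was 11.89, and its nearest neighbour 11.16. *Dusp1* in LKO_Fasted replicate 4 was 13.05, and its nearest neighbour 11.46. *Cebpd* in LKO_Fed replicate 1 was 10.86, and its nearest neighbour 11.35. The fasting change of *Tsc22d3* in LKO differed from that in LWT by -1.38 on the log2 scale, by the interaction term of limma (adjusted p = 0.00348).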

How the results depend on the processing

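Of 710 values of the 10 genes under alternatives other than leaving out 1 array, 683 kept their side of the threshold, 18 lost a call and 9 gained one. No called value reversed, and 26 of the 683, all uncalled, changed sign. Of 1200 values from fits that left out 1 array, 1169 kept their side of the threshold, 44 of them uncalled values that changed sign, 20 lost a call and 11 gained one. Leaving out 1 array gave 4 to 6 genes called for fasting in LWT, 8 in every fit for fasting in LKO, 0 to 1 for genotype in fed livers, 3 to 4 for genotype in fasted livers and 1 to 3 for the interaction. The 1 gene in fed livers was *Serpina6*, without LKO_Fed replicate 2. The interaction was called for 3 genes with the authors' values, 3 with a filter at all 24 arrays, 3 without the slide term, 3 without LKO_Fasted replicates 1 and 2 and 2 without array weights, where *Fkbp5* and, except without array weights, *Serpina6* joined *Tsc22d3*. Without 1 array it was called for 3 genes without LKO_Fasted replicate 2 or LKO_Fed replicate 2, and for 2 without LKO_Fasted replicate 1, LKO_Fed replicate 1 or 4, LWT_Fasted replicate 1 or 4, or LWT_Fed replicate 1. The cause was not tested. With the replicate number as a block, 6, 8, 0, 4 and 1 genes were called in the 5 comparisons, as without it. Replicate numbers did not pair the arrays, since deviations of same-numbered arrays had correlations between -0.17 and 0.30 (median -0.03). The exclusion of LWT_Fed replicate 3 together with LKO_Fasted replicate 4 was chosen after seeing the data. For the counts of the lists, the exclusion of LKO_Fasted replicates 1 and 2 was not planned. Counts from the second brightest probe were not made, as only 4 genes have one that passed the filter, and the interaction needs all groups. Signal over background limits the dimmest probe of *Fkbp5* to a count of arrays.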
